A study of Rattus norvegicus with 12 samples.

Results

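Cytochrome P450 enzymes and their partners in the oxidation of foreign compounds were measured in rat lung as 8 genes on 13 probe sets. The genes were Cyp1a1, Cyp1b1, Cyp4b1, Ahr, Tiparp, Aox1, Fmo2 and Por. They were taken from a list of 9 names, and every probe set whose platform annotation named one of them and no other gene was used, out of 14217 genes with such a probe set in the series. The remaining name, Cyp2b1, shared its probe set with Cyp2b2 and was not analysed here. All 13 probe sets passed the filter on dim signal, and Cyp1a1 and the dimmer Tiparp probe set did so only through their SS arrays.

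P450 enzymes are haem proteins of the endoplasmic reticulum that insert an oxygen atom into lipophilic substrates, with electrons passed on from NADPH by the reductase that Por encodes. The aryl hydrocarbon receptor, the product of Ahr, is a ligand-activated transcription factor that pairs with ARNT and binds xenobiotic response elements, and Cyp1a1, Cyp1b1 and Tiparp are among its best known targets. In lung, these enzymes are known for the activation and clearance of inhaled polycyclic hydrocarbons, and Cyp1a1 for its inducibility in endothelium.

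RNA from the right lung of 12 rats was hybridised to Affymetrix arrays, 3 arrays in each of 4 groups: HTV-ventilated Dahl salt-sensitive rats (SS HTV), control Dahl salt-sensitive rats (SS control), HTV-ventilated Brown Norway rats (BN HTV) and control Brown Norway rats (BN control). HTV is an abbreviation that the labels do not spell out. The samples of all 4 groups share a description that names room air ventilation. The animals weighed 250 to 350 g, and the lung vessels were rinsed with saline before the right lung was frozen. The Dahl strain becomes hypertensive on a high-salt diet, and the design text calls the strains parents. The design allows HTV to be compared with control in each strain, those changes to be compared between strains, and the strains to be compared under each condition.

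Values are the deposited intensities, linear and scaled alike on every array, with array medians of 58.5 to 68.1. Each difference is in log2(intensity + 16) units, followed after ± by its standard error (SE) from a limma model over all 12 arrays and 18625 probe sets, and a probe set is called where its adjusted p is below 0.05. This scale understates changes of dim probe sets. A 2-sided 95% confidence interval of a difference is given where its width matters. Each group has n = 3. The labels give each array a tag of its own and speak of 3 samples per strain and condition, so p-values rest on the spread between those samples, which may be partly technical. Markers of alveolar type 2 cells summed to intensities of 18131 to 27347 over the arrays, and hepatocyte markers to 234 to 517. One library stood apart. SS control 3 had the lowest mean correlation with its own group (0.95) and the lowest array weight (0.29). Its 5-prime to 3-prime log2 ratio of beta-actin was -1.41, against -1.02 to -0.23 in the other SS arrays and -1.47 to -0.88 in BN arrays. Results that rest on it are given with and without it.

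Cyp1b1, Tiparp and Por were called higher with HTV in lungs of both strains, and no member was called lower. The BN calls and the SS call of Tiparp were lost when certain single arrays were left out. Cyp1b1, the P450 that oxidises polycyclic hydrocarbons and oestrogens, was 1.87-fold higher in SS and 1.69-fold higher in BN lungs. Tiparp, an ADP-ribosyltransferase that represses the aryl hydrocarbon receptor, was 1.46-fold higher in SS and 1.51-fold higher in BN lungs on its brighter probe set. Por was 1.47-fold higher in SS and 1.35-fold higher in BN lungs, also on the brighter of its probe sets. Cyp1a1, the receptor's most inducible P450 target, did not pass the test in either strain. Its BN arrays had only 2.7 to 7.3, a range in which the scale hardly shows a change. Markers of neutrophils rose with HTV as well, 5 of 7 in SS and 6 of 7 in BN lungs, though some of them passed the filter only through their HTV arrays. In whole lung a change in the number of cells of a type and a change in RNA per cell cannot be told apart.

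The promoters of the 3 genes that rose are shown because they can be read for the core of the xenobiotic response element, GCGTG. The windows run from 250 bases before to 50 after the annotated start in RefSeq's GRCr8 table, and lie at chr6:21094315-21094614 on the plus strand (Cyp1b1), chr2:152063519-152063818 on the plus strand (Tiparp) and chr12:26635760-26636059 on the minus strand (Por). Capitals mark GCGTG, or CACGC where the core lies on the other strand.
Cyp1b1: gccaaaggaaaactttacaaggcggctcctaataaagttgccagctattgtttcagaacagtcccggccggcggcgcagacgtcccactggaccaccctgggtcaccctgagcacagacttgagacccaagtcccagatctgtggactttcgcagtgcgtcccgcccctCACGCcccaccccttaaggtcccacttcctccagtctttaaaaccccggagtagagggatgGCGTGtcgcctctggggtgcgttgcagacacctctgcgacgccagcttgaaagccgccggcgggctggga
Tiparp: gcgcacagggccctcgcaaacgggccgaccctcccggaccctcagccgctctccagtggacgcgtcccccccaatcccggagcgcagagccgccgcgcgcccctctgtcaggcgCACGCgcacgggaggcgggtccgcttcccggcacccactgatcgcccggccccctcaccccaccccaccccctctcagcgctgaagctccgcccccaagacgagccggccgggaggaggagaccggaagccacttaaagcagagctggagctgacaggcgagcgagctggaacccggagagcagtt
Por: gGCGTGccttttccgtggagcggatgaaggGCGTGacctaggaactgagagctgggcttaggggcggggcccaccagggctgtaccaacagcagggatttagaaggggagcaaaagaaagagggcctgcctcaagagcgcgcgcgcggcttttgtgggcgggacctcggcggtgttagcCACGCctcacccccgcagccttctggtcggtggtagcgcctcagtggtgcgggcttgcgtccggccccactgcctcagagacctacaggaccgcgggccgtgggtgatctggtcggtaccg
The windows have a GC content of 60.7% (Cyp1b1), 72.7% (Tiparp) and 66.3% (Por), beside a median of 51.7% over all windows. Cyp1b1 held 2 copies, with first bases at -81 and -20 from the start, Tiparp held 1 at -136, and Por held 3 at -249, -220 and -71. Promoters were matched for 8 of the 9 listed names, all except Cyp1a1. Cyp2b1 also held 1 copy, while Cyp4b1, Ahr, Aox1 and Fmo2 held 0. The core is short and common. Among all 33469 promoter windows of that length, 29.7% held at least 1 copy, 10.2% at least 2 and 3.59% at least 3. A match is a string of letters in a window, and binding was not measured.

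Cyp1b1 (probe set 1368990_at) had intensities of 258.9, 319.2 and 243 in the SS HTV arrays, against 147.9, 130.9 and 134.4 in the SS control arrays. It had 237.1, 154.3 and 214.1 in BN HTV arrays, against 92.6 to 132.4 in BN control arrays. Every HTV array lay above every control array of either strain. The difference was 0.91 ± 0.16 (adjusted p = 0.00513) in SS and 0.76 ± 0.16 (adjusted p = 0.0162) in BN lungs. The call in SS was kept in every alternative run. The call in BN was lost without BN HTV 1 (adjusted p = 0.0799), BN control 2 (adjusted p = 0.0545) or BN control 3 (adjusted p = 0.0724).

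Tiparp (1374446_at) had 728.5, 673.1 and 677.7 in SS HTV arrays, against 427.1, 475.4 and 512.1 in SS control arrays. In Brown Norway rats it had 675.3, 495.9 and 634.1 in HTV arrays, against 394.2, 371.6 and 404.5 in control arrays. The groups did not overlap within either strain, and BN HTV 2 was the lowest of the 6 HTV arrays. The difference was 0.54 ± 0.12 (adjusted p = 0.014) in SS and 0.59 ± 0.12 (adjusted p = 0.00959) in BN lungs. The SS call was lost without SS HTV 1 (adjusted p = 0.0627) and the BN call without BN HTV 1 (adjusted p = 0.0522). The dimmer Tiparp probe set (1385407_at) did not follow: its difference was -0.29 ± 0.29 (adjusted p = 0.57) in SS and 0.34 ± 0.29 (adjusted p = 0.587) in BN lungs. With the mean of both probe sets, neither strain passed (adjusted p = 0.696 in SS and 0.175 in BN lungs). Without SS control 3 the SS difference of the dimmer probe set was -0.06 (adjusted p = 0.933).

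Por (1387109_at) had 626.2, 746.8 and 586.7 in SS HTV arrays, against 426.8, 433.6 and 446.2 in SS control arrays. It had 520.7, 608.6 and 633.8 in BN HTV arrays, against 433, 421.1 and 438.4 in BN control arrays. The 6 control arrays of both strains spanned 421.1 to 446.2, and every HTV array lay above them. The difference was 0.56 ± 0.11 (adjusted p = 0.00728) in SS and 0.43 ± 0.11 (adjusted p = 0.0328) in BN lungs. The BN call was lost without any of 5 arrays, BN HTV 2 (adjusted p = 0.103), BN HTV 3 (0.0939), BN control 1 (0.0905), BN control 2 (0.102) and BN control 3 (0.0836), and with the mean of both probe sets (0.198). The dimmer Por probe set (1368213_at) averaged 311.9 ± 74.8 in SS HTV and 210.3 ± 47.6 in SS control arrays (SD), a difference of 0.53 ± 0.21 that did not pass (adjusted p = 0.14). In BN lungs its difference was 0.20 ± 0.21 (adjusted p = 0.662). Without SS control 3 its SS difference was 0.35 (adjusted p = 0.378).

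These were the only member probe sets called for HTV in either strain. In SS lungs 3 of 13 were called higher and 0 lower, where 8.06% of all tested probe sets were called, 3.91% higher and 4.16% lower. In BN lungs 3 of 13 were called higher and 0 lower, where 5.82% of all were called, 2.96% higher and 2.86% lower. The other 10 member probe sets passed in neither strain, and with limma 6 of 13 in SS and 3 of 13 in BN lungs had an unadjusted p below 0.05, as did 25.3% and 19.9% of all tested probe sets, so the BN share was close to that of all. The median difference over the 8 genes was 0.31 in SS and 0.1 in BN lungs, beside 0 and -0.04 over all tested probe sets. HTV arrays all lay above control arrays at 3 of 13 member probe sets in each strain, as at 14% of all probe sets in SS and 10.9% in BN lungs. They all lay below at 0 of 13 in SS and 1 of 13 in BN lungs, as at 15.8% and 15.7% of all. Without SS control 3, Cyp1b1 (0.89, adjusted p = 0.0164), Tiparp (0.6, adjusted p = 0.0153) and Por (0.58, adjusted p = 0.0143) remained called in SS lungs and Ahr 1369146_a_at was called lower, where 5.29% of all were called.

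**Figure D1:**
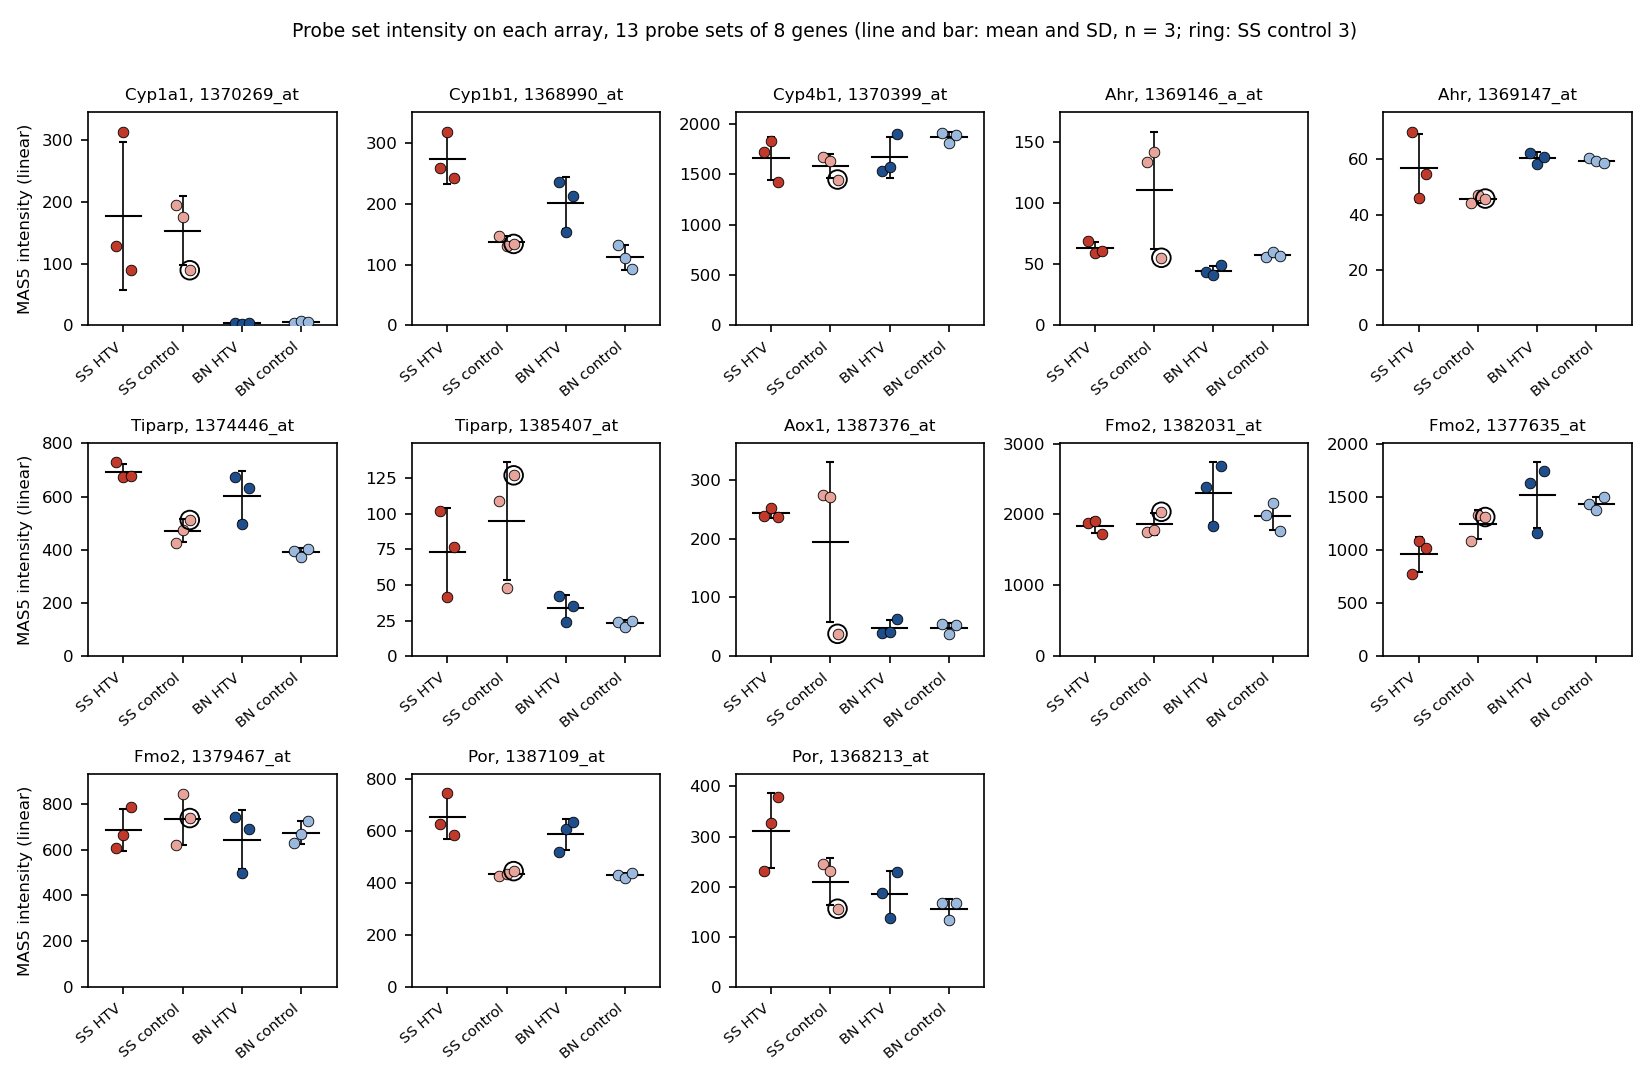
Deposited intensity (linear) of the 13 member probe sets on every array, with SS HTV, SS control, BN HTV and BN control from left to right; points are arrays, lines and bars the mean and SD (n = 3), and a ring marks SS control 3. Cyp1b1, Tiparp 1374446_at and Por 1387109_at sit higher in HTV than in control arrays of each strain, Cyp1a1 is at or below 7.3 in every BN array, and SS control 3 falls to 38.1 for Aox1.

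The other members gave no call for HTV. Cyp1a1 (1370269_at) differed by 0.08 ± 0.34 (adjusted p = 0.902) in SS and by -0.15 ± 0.34 (adjusted p = 0.862) in BN lungs. The interval of the SS difference was -0.65 to 0.81, and its SS arrays ran from 89.3 to 313.1. In BN arrays Cyp1a1 had 2.7 to 7.3, where the pseudocount nearly hides a change. The BN difference thus cannot show whether Cyp1a1 changed within so dim a range. Cyp4b1 (1370399_at), a P450 of the airway epithelium that bioactivates furans, averaged 1659 ± 212 in SS HTV and 1583 ± 118 in SS control arrays, and 1670 ± 204 in BN HTV and 1870 ± 52.2 in BN control arrays. Its interval was -0.18 to 0.31 in SS and -0.41 to 0.08 in BN lungs. Of the 3 Fmo2 probe sets, which measure the flavin monooxygenase most typical of lung, none passed in either strain, and 1377635_at had the largest difference in SS lungs (-0.38, adjusted p = 0.152). Aox1 (1387376_at), the aldehyde oxidase, differed by -0.01 ± 0.47 (adjusted p = 0.992) in BN lungs. In SS lungs its 0.65 ± 0.47 (adjusted p = 0.403) turned to -0.16 (adjusted p = 0.644) without SS control 3.

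Ahr itself was measured by 2 probe sets that ran apart. On 1369146_a_at it had 69.1, 59.3 and 61.1 in SS HTV arrays, against 133.5, 141.8 and 55.2 in SS control arrays. It had 44, 41 and 49.1 in BN HTV arrays, against 56.1, 59.9 and 56.6 in BN control arrays. HTV arrays were the lower ones in BN lungs without overlap and in SS lungs except for SS control 3. The difference was -0.59 ± 0.23 (adjusted p = 0.136) in SS and -0.28 ± 0.23 (adjusted p = 0.569) in BN lungs, and without SS control 3 the SS difference was -0.96 (adjusted p = 0.00136). On 1369147_at the difference was 0.22 ± 0.13 (adjusted p = 0.311) in SS and 0.02 ± 0.13 (adjusted p = 0.961) in BN lungs. Over the 12 arrays the 2 probe sets correlated at r = -0.55, a description over arrays that share strain and HTV.

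**Figure D2:**
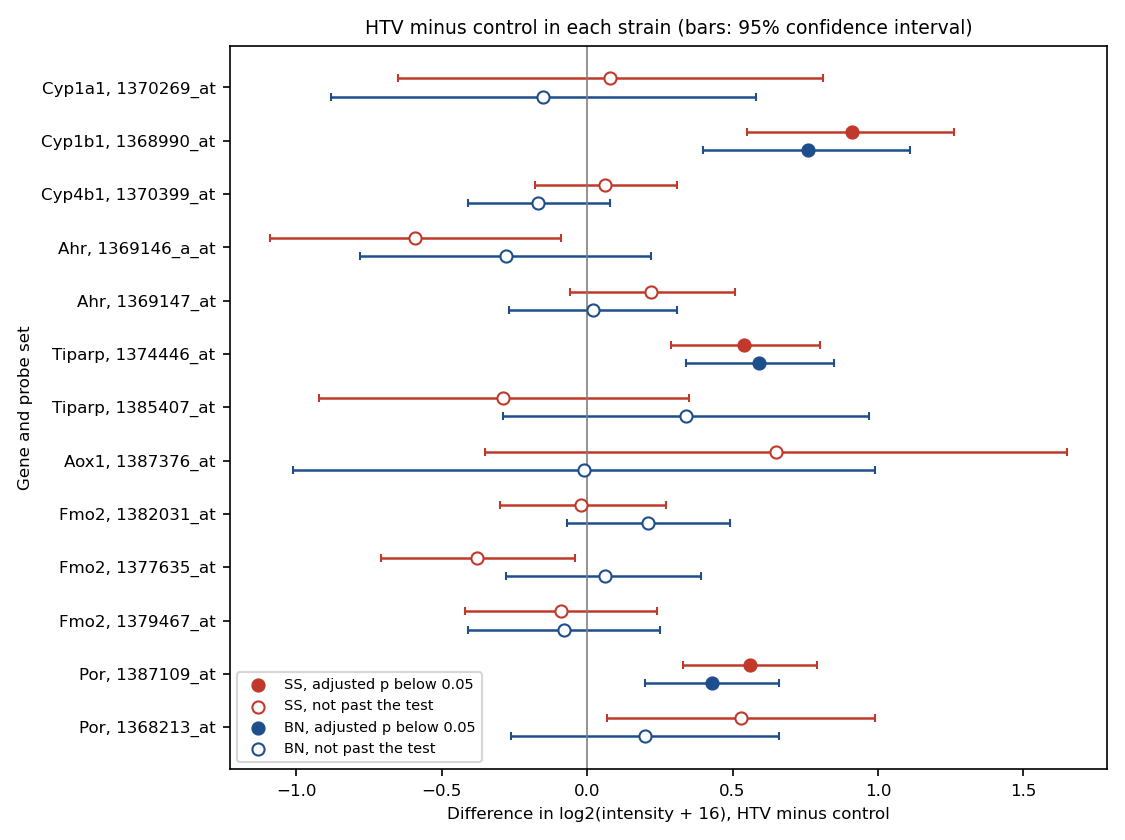
HTV minus control difference, log2(intensity + 16), for each of the 13 member probe sets in SS and in BN lungs, with 95% confidence intervals from the limma model. Filled markers are called at an adjusted p below 0.05. Cyp1b1, Tiparp 1374446_at and Por 1387109_at are called higher in both strains.

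No member passed the test of a different HTV change in the 2 strains. The SS change minus the BN change was 0.15 ± 0.23 for Cyp1b1 (interval -0.35 to 0.65, adjusted p = 0.867), -0.05 ± 0.17 for Tiparp 1374446_at (-0.41 to 0.31) and 0.13 ± 0.15 for Por 1387109_at (-0.2 to 0.46). Differences between strains inside these intervals could not be told from none with 3 arrays a group. With limma, 0 of 13 member probe sets and 0 of 18625 probe sets in all (0%) passed this test, and 0 members and 1551 probe sets had an unadjusted p below 0.05. Those counts include SS control 3. For Ahr 1369146_a_at the SS change minus the BN change was -0.31 ± 0.33 (adjusted p = 0.793). Without SS control 3 it was -0.68 ± 0.17, which did not pass either (adjusted p = 0.619).

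Cyp1a1 was bright in SS and dim in BN lungs in both conditions. Cyp1a1 had 128.4, 313.1 and 89.6 in SS HTV arrays, against 4, 2.7 and 4.6 in BN HTV arrays. Without HTV it had 194, 175.1 and 89.3 in SS control arrays, against 4.6, 7.3 and 6 in BN control arrays. The strains were separated on all 12 arrays. In BN arrays the probe set lay between the 5.2 and 11.3 percentile of its array, and in SS arrays between the 57 and 83.9 percentile. The difference was 3.12 ± 0.34 in HTV lungs and 2.88 ± 0.34 in control lungs. Both were called, but the probe set passed the filter through its SS arrays alone and so had to differ. With no filter the adjusted p was 0.000428 in HTV and 0.00085 in control lungs. The size of the difference is set by the pseudocount: with 64 in place of 16 it was 1.72 in HTV and 1.6 in control lungs. How far the BN values lay above background is unknown, since no detection call was used here, and so no fold is given. A sequence difference between the strains under the probes was not tested.

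Aox1 separated the strains on all arrays except SS control 3. It had 239.6, 252.7 and 238 in SS HTV arrays, against 39.2, 41.4 and 64.1 in BN HTV arrays, a difference of 2.03 ± 0.47 (adjusted p = 0.0173). It had 274.9, 270.7 and 38.1 in SS control arrays, against 54, 38 and 52.6 in BN control arrays, a difference of 1.37 ± 0.47 that did not pass (adjusted p = 0.0703). SS control 3 thus lay inside the BN range of 38 to 64.1. Without it, the difference was 2.18 (adjusted p = 1.01e-05) in control lungs. The call in HTV lungs was lost without SS HTV 2 (adjusted p = 0.0622), SS HTV 3 (0.0561), BN HTV 1 (0.0606) or BN HTV 2 (0.0629), and with beta-actin as covariate (0.105), in fits that keep SS control 3 and its spread.

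SS control 3 also moved the strain difference of Ahr. On 1369146_a_at SS control 3 had 55.2, inside the BN range of 41 to 59.9, and the control difference of 0.69 ± 0.23 (adjusted p = 0.0684) became 1.06 (adjusted p = 0.000385) without it. In HTV lungs the 3 SS arrays lay above the 3 BN arrays, with a difference of 0.38 ± 0.23 (adjusted p = 0.355). On 1369147_at SS control arrays, at 44.3 to 47.2, lay below BN control arrays, at 58.7 to 60.5, a difference of -0.29 ± 0.13 (adjusted p = 0.17). The array did not take BN values throughout: its Cyp1a1 of 89.3 and its Tiparp 1385407_at of 127.1 lay above every BN array.

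The dimmer Tiparp probe set, 1385407_at, also passed the filter only through its SS arrays, so that it had to differ between strains. It had 109.1, 48.2 and 127.1 in SS control arrays, against 23.8, 20.5 and 24.7 in BN control arrays, a difference of 1.43 ± 0.29 that was called, with an adjusted p of 0.0194 when no filter was applied. Without SS control 3 the difference was 1.2. In HTV lungs it had 102, 41.7 and 77 in SS arrays, against 42.3, 24 and 35.1 in BN arrays. Those groups overlapped, and the difference of 0.80 ± 0.29 did not pass (adjusted p = 0.113). The brighter probe set differed by 0.26 (adjusted p = 0.159) in control lungs, with no overlap.

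Fmo2 gave a single strain call. On 1377635_at it had 775.2, 1088.6 and 1015.3 in SS HTV arrays, against 1634.1, 1163.2 and 1749.4 in BN HTV arrays, a difference of -0.64 ± 0.16 (adjusted p = 0.023). In control lungs the SS arrays also lay below the BN arrays, by -0.21 (adjusted p = 0.395). The brightest Fmo2 probe set, 1382031_at, differed by -0.31 in HTV lungs (adjusted p = 0.172), and 1379467_at averaged 685.4 ± 90.3 in SS HTV and 643.6 ± 128 in BN HTV arrays. The call was lost without SS HTV 1 (adjusted p = 0.0753), SS HTV 3 (0.0516), BN HTV 1 (0.0848) or BN HTV 3 (0.0841), with beta-actin as covariate (0.0709) and with only the arrays compared (0.0538).

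Of 13 member probe sets, 3 were called between strains in HTV lungs, Cyp1a1 and Aox1 higher and Fmo2 1377635_at lower in SS, where 8.24% of all probe sets were called, 3.82% higher and 4.42% lower. In control lungs the 2 called were Cyp1a1 and Tiparp 1385407_at, where 12.2% of all were called, 5.84% higher and 6.41% lower. Since the filter fixed the direction of both, nothing is read from that count, nor from Cyp1a1 in the HTV count. Without SS control 3 the count in control lungs was 3 of 12 tested, since Cyp1a1 then fell below the filter, and 11.5% of all were called. SS arrays all lay above BN arrays at 5 and below at 1 of 13 member probe sets in HTV lungs, as at 15.3% and 14% of all. In control lungs they did so at 3 and 3, as at 15.5% and 17.7% of all. Both counts of SS arrays above BN arrays include Cyp1a1, and that in control lungs also Tiparp 1385407_at. Cyp1b1 and Por were called between strains in neither condition: Cyp1b1 differed by 0.42 ± 0.16 (adjusted p = 0.138) in HTV and by 0.27 (adjusted p = 0.288) in control lungs. The dimmer Por probe set differed by 0.71 ± 0.21 (adjusted p = 0.0592) in HTV lungs, and by 0.71 (adjusted p = 0.0315) without SS control 3. Cyp4b1 was lower in SS control than in BN control arrays without overlap, by -0.24 ± 0.11 (adjusted p = 0.18).

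**Figure D3:**
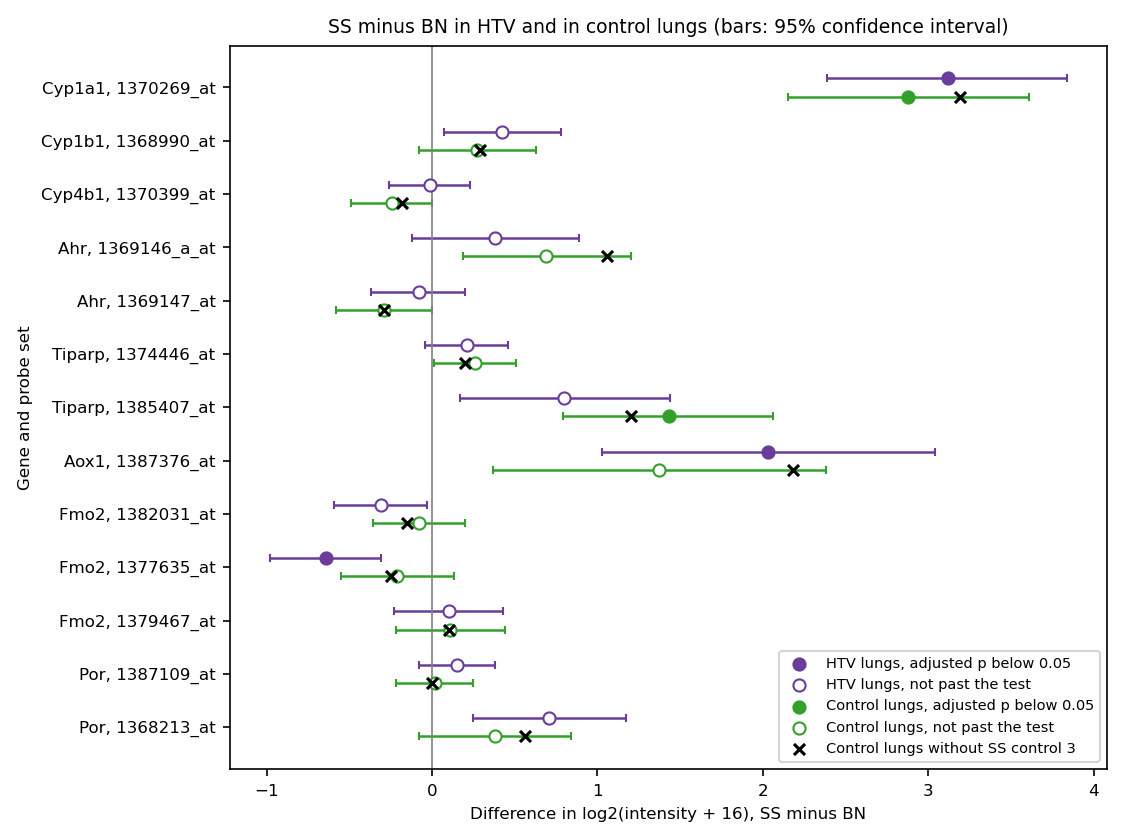
SS minus BN difference, log2(intensity + 16), for each of the 13 member probe sets in HTV and in control lungs, with 95% confidence intervals from the limma model; filled markers are called at an adjusted p below 0.05, and crosses give control lungs without SS control 3. Cyp1a1 stands at 3.12 in HTV and 2.88 in control lungs, and Aox1 at 2.03 and 1.37.

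Other genes of the pathway, taken from 8 lists of 119 genes, of which 81 were tested, gave 1 call for HTV. In SS lungs 0 were called higher and 1 lower, and in BN lungs 0 were called by limma, where 8.06% and 5.82% of all tested probe sets were called. Unadjusted p-values below 0.05 numbered 10 of 81 in each strain (12.3%), beside 25.3% of all tested probe sets in SS and 19.9% in BN lungs. Their median difference was -0.01 in SS and -0.10 in BN lungs. The call was Akr1c14, an aldo-keto reductase, at -0.62 ± 0.14 (adjusted p = 0.0193), on a probe set that may also match related sequences. It was lost without SS HTV 1 (adjusted p = 0.0876), SS HTV 3 (0.0552) or SS control 2 (0.0728). Of 13 listed partners and targets of the aryl hydrocarbon receptor, 10 had a probe set and 7 were tested. Arnt, Ahrr and Cyp1a2 fell below the filter, so whether they changed was not tested. Of the 7 tested, 0 were called in any of the 5 comparisons. Arnt2, a partner, was the one with an unadjusted p below 0.05, in both strain comparisons. It differed by 0.54 ± 0.18 (adjusted p = 0.0867) in HTV and by 0.52 ± 0.18 (adjusted p = 0.0752) in control lungs. Nqo1, a quinone reductase and receptor target, differed by 0.21 ± 0.10 (adjusted p = 0.204) in SS and 0.11 ± 0.10 (adjusted p = 0.578) in BN lungs. Aldh3a1, a further target, differed by 0.06 ± 0.15 (adjusted p = 0.827) in SS and 0.03 ± 0.15 (adjusted p = 0.943) in BN lungs. Its probe set was dim, at 33.1 to 54.8 over all arrays, and the scale understates changes of dim probe sets. Of 6 tested genes listed as P450 partners beside Por, 0 were called for HTV, with 2 unadjusted p-values below 0.05 in SS and 0 in BN lungs. They were Cyb5a, Cyb5b, Cyb5r3, Fdx1, Pgrmc1 and Pgrmc2, and not all of them are known to pass electrons. Cyb5a, cytochrome b5, differed by -0.28 ± 0.14 in SS lungs (adjusted p = 0.241). Of 19 other P450 genes tested, 0 were called for HTV in either strain, with 1 such p-value in SS and 3 in BN lungs.

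**Figure D4:**
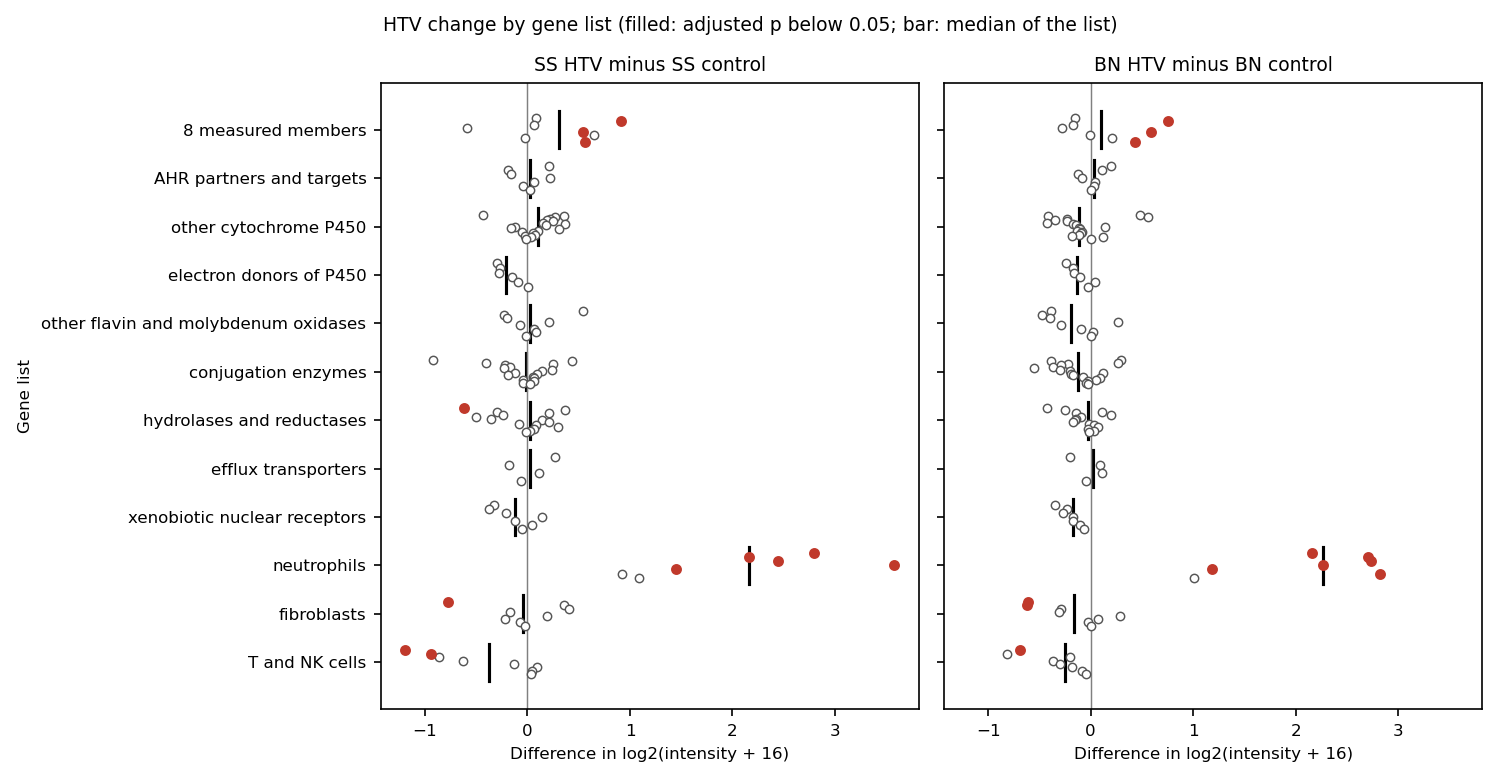
HTV minus control difference, log2(intensity + 16), of the 8 members, the tested genes of 8 pathway lists and 3 cell marker lists in SS and BN lungs; points are genes by their brightest tested probe set, filled where called, and bars are list medians. In the pathway lists Akr1c14 in SS lungs is the one called gene, while neutrophil markers have medians of 2.16 and 2.27.

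Between strains the pathway genes were called about as often as probe sets in general. In HTV lungs 4 of the 81 were called higher and 4 lower in SS (9.88%, beside 8.24% of all), and in control lungs 6 and 4 (12.3%, beside 12.2% of all). The lower counts include Gsta3 and Ephx2, whose direction the filter fixed. Gsta4, a glutathione transferase for lipid aldehydes, had 638.5, 907.6 and 812.7 in SS HTV arrays, against 197.3, 168.5 and 332.7 in BN HTV arrays, and differed by 1.73 ± 0.24 (adjusted p = 0.000703). In control lungs it differed by 1.76 ± 0.24 (adjusted p = 0.000643). Gsta3 ran the other way, at -1.1 ± 0.2 (adjusted p = 0.00529) in HTV and -1.24 ± 0.2 (adjusted p = 0.00238) in control lungs. Its SS arrays had 32 to 53.7. The probe set passed the filter only through its BN arrays and so had to differ in this direction. Akr1b8, an aldose reductase relative, differed by -1.26 ± 0.2 (adjusted p = 0.00169) in HTV and -1.28 ± 0.2 (adjusted p = 0.00156) in control lungs. These calls were kept in every alternative run where the probe set was tested. Ephx2, the soluble epoxide hydrolase, was lower in SS HTV arrays by -1.67 ± 0.33 (adjusted p = 0.00818). Its probe set also passed the filter only through BN arrays, so the direction of its strain difference was fixed. In control lungs it had 18.2, 30.3 and 92.4 in SS arrays, against 85.2 to 115.8 in BN arrays, so SS control 3 again lay inside the BN range. The difference was -1.09 ± 0.33 (adjusted p = 0.0477), and -1.57 (adjusted p = 0.00133) without SS control 3. Fmo1, a relative of Fmo2, was lower in SS by -0.47 ± 0.13 (adjusted p = 0.0487) in HTV and by -0.66 ± 0.13 (adjusted p = 0.00879) in control lungs. The Ephx2 call in control lungs was lost in 17 of 22 settings and the Fmo1 call in HTV lungs in 16 of 23. The Ephx2 call in HTV lungs was lost with beta-actin as covariate (adjusted p = 0.0523). Beside Gsta4, the genes called higher in SS control lungs were Cyp2e1, Gsta1, Akr1c14, Mgst2 and Aldh2. In HTV lungs they were Cyp20a1, Akr1c14 and Aldh2. Cyp2e1 differed by 0.65 (adjusted p = 0.0401), lost in 11 of 23 settings. Cyp20a1 differed by 0.49 (adjusted p = 0.025), lost in 5 of 23. The control calls of Gsta1 (0.72, adjusted p = 0.00602) and Akr1c14 (0.73, adjusted p = 0.00723) were kept in every setting. Glutathione transferases of one class share sequence, and cross-hybridisation was not tested. Without SS control 3, control lungs had 5 of 79 tested pathway genes called higher and 5 lower, where 11.5% of all probe sets were called.

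Cell type markers moved with HTV and with strain. Neutrophil markers, 7 of 7 tested, were called higher with HTV for 5 genes in SS and 6 in BN lungs, with medians of 2.16 and 2.27. Il1r2, Cxcr2, Mmp8 and Mmp9 passed the filter only through their HTV arrays, so their direction over both strains was fixed. The counts and medians are over all 7 markers. Their summed intensity was 8106, 5364 and 6609 in SS HTV arrays, against 1401, 1889 and 2349 in SS control arrays. It was 8504, 8082 and 2859 in BN HTV arrays, against 965, 922 and 1615 in BN control arrays. BN HTV 3, the HTV array with the lowest sum, still had a sum above every BN control array. Its intensities of 214.1 for Cyp1b1, 634.1 for Tiparp 1374446_at and 633.8 for Por 1387109_at were also above every BN control array. Whether the rise of these genes depended on neutrophil content was not tested. Markers of T and NK cells, 8 of 9 tested, were called lower with HTV for 2 genes in SS and 1 in BN lungs. All 9 summed to 1081, 1087 and 1224 in SS HTV arrays, against 1975, 1935 and 1246 in SS control arrays, the last being SS control 3. They summed to 866, 670 and 898 in BN HTV arrays, against 1082, 1150 and 1051 in BN control arrays. Endothelial markers, 11 of 11 tested, summed to 13510 to 15809 in SS and 16638 to 18258 in BN arrays. In each condition 2 of the 11, Pecam1 and Vwf, were called lower in SS and 0 higher. Fibroblast markers, 8 of 8 tested, summed to 7439 to 8218 in SS and 4613 to 6656 in BN arrays. Cardiac muscle markers, 6 of 6 tested, had the strain difference with the largest median of these lists: 2 were called lower in SS HTV lungs (median -1.71) and 5 in SS control lungs (median -2.26). Tnnt2 and Ryr2, called in both conditions, and Tnni3, called in control lungs, passed the filter only through their BN arrays. The direction of these calls was so fixed in advance. All 6 markers are in the medians and sums. The markers summed to 1026, 562 and 141 in SS HTV arrays, against 2083, 3246 and 811 in BN HTV arrays. In control lungs the sums were 460, 88 and 182 in SS arrays, against 2312, 966 and 1063 in BN arrays. Of 5 tested club cell markers, 0 were called by limma in any comparison, and 1 had an unadjusted p below 0.05, in control lungs. The part of these cells in the results was not tested.

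For each gene the 2 genes with the most similar profile over the 12 arrays were searched among 10553 others, by Pearson's r on the log2 scale, as a description. The arrays share strain and HTV, and such a search always returns high values. Cyp1a1 was most like Tmem132a (r = 0.978) and P2ry14 (r = 0.976), and Tmem132a had 286.6 to 356.1 in SS against 184.7 to 214.4 in BN arrays. Cyp1b1 was most like Dusp10 (r = 0.952), a phosphatase of stress-activated kinases, and Moxd1 (r = 0.944). Dusp10 had 116, 132.6 and 137.2 in SS HTV arrays, against 55.8, 52.6 and 45.2 in SS control arrays. Tiparp was most like Cttnbp2nl (r = 0.96) and Cdr2 (r = 0.953), and Por most like Emd (r = 0.936), which encodes emerin, and Smim3 (r = 0.929). Aox1 was most like Tmem44 (r = 0.962) and Nav2 (r = 0.961), and Tmem44 also took a BN-like 17.8 in SS control 3, against 71 to 90.9 in the other SS arrays. Ahr 1369146_a_at was most like Plxna1 (r = 0.928) and Ccl5 (r = 0.927), a chemokine. Cyp4b1 was most like Ramp2 (r = 0.91), an endothelial gene, and Tacc2 (r = 0.905), and Fmo2 most like Snapc1 (r = 0.897) and Rps6kb1 (r = 0.892).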

How the data were processed

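Right lungs of 12 rats were measured, 3 arrays in each of 4 groups taken from the labels. Values were deposited by the authors as linear intensity per probe set. Per the submitters' processing notes they were made with MAS5; no source used here gives its version or settings. Every array had a trimmed mean of 150 (2nd to 98th percentile), so the values were taken as already scaled. The 57 control probe sets were left out. Probe sets were named from the platform annotation, 20826 with 1 gene, 436 with several (not named) and 9780 with none. A RefSeq table (GRCr8) updated 0 member symbols and gave the promoters.

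A pseudocount of 16 was added before taking log2. Probe sets whose mean fell below the 40th percentile, equivalent to an intensity of 42.2, were dropped. The 4 group means were fitted with limma 3.58.1 in R 4.3.3 (lmFit, eBayes with trend, 8 residual degrees of freedom), with Benjamini-Hochberg adjustment over the 18625 kept probe sets in each of 5 comparisons, at 0.05. The number of arrays limits the precision.

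All probe sets of a member are reported, and the brightest leads. Of each pathway list, up to 4 called genes per comparison could be named, and of these a selection is printed, along with values of uncalled members. The members and lists were chosen with earlier results of these data known. Alternatives were other pseudocounts (1 and 64), filters (none, 60th percentile), quantile normalization, median centring, no trend, array weights, the beta-actin ratio, a block by the number in the sample tag (animal number block), only the arrays compared, the mean over probe sets and each array left out.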

Additional observations from a re-analysis of the deposited data

How the results depend on the processing

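Of 11 calls of member probe sets, 5 held in every setting run where the probe set was tested (Cyp1b1 and Por 1387109_at for HTV in SS lungs, Cyp1a1 between strains in both conditions, Tiparp 1385407_at in control lungs, the last 3 on probe sets that passed the filter through SS arrays alone) and 6 were lost in at least 1 setting. Of 54 member results that did not pass, 6 passed in at least 1 setting, and 0 reversed. Of 19 pathway calls, 10 were lost in at least 1 setting. Cyp1a1 fell below the filter, and so was not tested, with a pseudocount of 1 and with the filter at the 60th percentile. It also fell below when some single arrays were left out, and was then tested with the probe sets of the main filter, an alternative chosen after seeing the data.

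Probe sets called for HTV in SS lungs numbered 1502, and 810 with only the arrays compared. Leaving out 1 array gave 630 (without SS HTV 1) to 1500, with 683 without SS HTV 3, 902 without SS control 2 and 986 without SS control 3. Member calls were 3, and 2 to 4. For HTV in BN lungs 1084 were called, 1658 with array weights and 530 (without BN HTV 1) to 1466 with an array left out, with 553 without BN HTV 2, 577 without BN control 1, 568 without BN control 2 and 615 without BN control 3. Member calls were 3, and 1 to 3, with 1 without BN HTV 1, BN control 2 or BN control 3. For the difference between strains in the change, 0 were called, and 0 to 1 with an array left out (1 without SS control 2). Member calls were 0, and 0 to 0. Between strains in control lungs 2281 were called, 4090 with array weights, 1463 with only the arrays compared and 731 (without BN control 2) to 2342 with an array left out, with 1116 without SS control 2 and 1333 without BN control 3. Member calls were 2, and 1 to 3. They were 1 with a pseudocount of 1, 0 with the filter at the 60th percentile, and 4 each with median centring, array weights and the animal number block. Between strains in HTV lungs 1535 were called, 587 with the beta-actin ratio as covariate and 678 (without SS HTV 2) to 2191 with an array left out, with 765 without SS HTV 3, 977 without BN HTV 1 and 891 without BN HTV 2. Member calls were 3, and 0 (without SS HTV 3) to 3. They were 1 with the filter at the 60th percentile and 1 with the beta-actin covariate. Some member counts fell because Cyp1a1 or Tiparp 1385407_at was no longer tested. The cause of the other shifts was not tested.

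With array weights, Ahr 1369146_a_at passed for HTV in SS lungs (adjusted p = 0.00442), and it passed between strains in control lungs (0.00103), as it did with quantile normalization (0.0343), median centring (0.0289) and the animal number block (0.0173). Aox1 passed in control lungs with median centring (0.042), array weights (0.00058) and the animal number block (0.0138). Median centring gave 36.2% of HTV calls in SS lungs as higher, where the deposited scale gave 48.5%, and 68% of strain calls in control lungs, where it gave 47.7%. No paired analysis was possible because the labels give no replicate number that groups share; the animal number block sets SS HTV 3 and SS control 3, whose tag numbers stand apart, against the other arrays and pairs none.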
